A study of Mus musculus with 10 samples.

Results

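Olfactory receptor genes were followed in mouse J1 cells, an embryonic stem cell line. Members were chosen by detection: array probes named Olfr followed by a number that were well above background on all 10 arrays of the study. This rule gave 145 probes of 143 genes, of 952 olfactory receptor probes of 908 genes and 41174 probes in all. The choice used the detection flags of every array, so that a receptor whose probe missed the flag on any array was left out, and no fold change entered it. The cells carried 1 of 4 small interfering RNAs (siRNAs) against Ino80, Ino80b, Ino80c or Ino80e, or a non-targeting siRNA (NT). They were grown in ESGRO medium, kept in M15 medium for the transfection and harvested after 96 hours (day 4). All 5 groups were transfected, and an untransfected group was not analysed here. Each group had 2 arrays, which the design text calls biological replicates. INO80 is a chromatin remodelling complex, of which Ino80 is the catalytic subunit and the products of Ino80b, Ino80c and Ino80e are further subunits.

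Olfactory receptors are G protein-coupled receptors that bind odorants on the cilia of sensory neurons in the nose. They form the largest gene family of the mouse, in clusters on most chromosomes, and most have a single coding exon. Each mature sensory neuron expresses a single receptor allele while the rest of the family lies in silent heterochromatin. Binding of an odorant activates the G protein Golf (Gnal), which stimulates adenylyl cyclase 3 (Adcy3) and thereby opens a cyclic nucleotide-gated channel (Cnga2). Some members are also used in tissues outside the nose.

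Each gene is represented by a probe of 60 bases, and the sequences are shown because family members resemble one another and a probe can bind more than its own transcript. Olfr187, Olfr149, Olfr1215 and Olfr353 are shown for their differences between knockdown and NT cells. Their capitals mark the longest run that they share with the closest probe of another gene on the array, and positions are on build mm7. The strand is that of the order of the coordinates in the scanner files. The probes lie at chr16:58972175-58972234 (minus strand, Olfr187), chr9:39631730-39631789 (minus, Olfr149), chr2:88845818-88845877 (minus, Olfr1215) and chr2:36897471-36897530 (minus, Olfr353).
Olfr187: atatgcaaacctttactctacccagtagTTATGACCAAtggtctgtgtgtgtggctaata
Olfr149: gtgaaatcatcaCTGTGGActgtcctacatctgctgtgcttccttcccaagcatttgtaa
Olfr1215: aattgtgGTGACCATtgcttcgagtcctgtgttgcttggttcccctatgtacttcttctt
Olfr353: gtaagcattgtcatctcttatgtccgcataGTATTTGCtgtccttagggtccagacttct
The longest of these runs was 10 bases, in Olfr187, shared with the probe of Olfr291. Over the whole alignment 36 of 51 bases matched for Olfr187, 20 of 24 for Olfr149, 40 of 55 for Olfr1215 and 39 of 50 for Olfr353. Only probes on the array were compared, so binding to other transcripts was not tested.

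Other receptor probes resembled a probe of another gene more closely. For 9 of the 145 probes the closest probe of another gene matched in 45 or more of 60 bases, and none of those 9 closest probes was well above background on all 10 arrays. These matches ran from 45 of 60 aligned bases (Olfr62) to 55 of 58 (Olfr1206). Below that cut, the probe of Olfr1359 matched that of Olfr1360, detected on 9 arrays, in all 39 aligned bases. In the pairs below the capitals mark the aligned bases that differ. Olfr1206 (chr2:88709010-88709069, plus strand) was detected on 10 arrays and Olfr1203 (chr2:88675524-88675583, plus) on 7, although the probes differed at 3 of the aligned bases. Olfr53 (chr7:137070003-137070062, plus) was detected on 10 arrays and Olfr539 (chr7:137085343-137085402, plus) on 1, with 3 differing bases.
Olfr1206: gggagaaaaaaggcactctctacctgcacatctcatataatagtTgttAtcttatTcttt
Olfr1203: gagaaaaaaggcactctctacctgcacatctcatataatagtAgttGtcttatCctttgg
Olfr53: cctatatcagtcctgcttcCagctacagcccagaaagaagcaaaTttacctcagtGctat
Olfr539: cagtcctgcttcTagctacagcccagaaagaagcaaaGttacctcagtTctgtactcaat
The array annotation listed RefSeq transcripts of more than 1 gene for 21 of the 145 probes, among them Olfr43 (also Olfr403), Olfr1383 (also Olfr1384), Olfr1381 (also Olfr1373 and Olfr1382) and Olfr1393 (also Olfr10 and Olfr1392). Their signals may belong to any of the listed genes. RefSeq (GRCm38.p6) held a symbol for 143 of the 145 probes, and 5 of those symbols differed from the array's name, such as Olfr279 for the probe named Olfr234.

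On an array 66.3% to 78.9% of all probes stood well above background. No spot was saturated, and the precision is limited by 2 arrays per group. Ino80 RNA stood at 43.5% of NT in its own knockdown, Ino80b at 25.0%, Ino80c at 19.8% and Ino80e at 43.3%, and the last of these did not pass the test (adjusted p = 0.0831). Each value is from 1 probe, of 3 on the array for Ino80 and 2 for Ino80c. The Ino80b probe was also lower on the Ino80c arrays (log2 level -2.40 and -2.36) and the Ino80e arrays (-2.43 and -2.89) than on NT (-1.39 and -1.15). It read -3.03 and -3.51 on the Ino80b arrays and -1.49 and -0.47 on the Ino80 arrays. The NT arrays were alone on slide 1, the Ino80 and Ino80b arrays shared slide 2 and the Ino80c and Ino80e arrays shared slide 3, and each slide was a scan of its own. Slide and knockdown therefore cannot be told apart in any comparison with NT, which the 4 knockdowns share. All 10 embryonic stem cell markers looked up, Pou5f1, Sox2 and Nanog among them, were well above background on all arrays. Of these, 5 were called lower in the Ino80 knockdown, 3 in the Ino80b knockdown, 2 in the Ino80c knockdown and 0 in the Ino80e knockdown, and the list's median log2 fold changes over NT were -0.69, -0.50, -0.43 and -0.30. Of all probes tested, 11.6%, 5.70%, 4.78% and 0% were called in either direction in the same order.

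Olfactory receptor probes were detected less often than the probes of other genes. Of the 952 probes, 359 (37.7%) were well above background on no array, against 15.1% of the other probes, and 145 (15.2%) on all 10, against 62.0% of the other probes. The share well above background on an array was 48.4% and 24.4% in the Ino80 knockdown, 22.9% and 25.9% in the Ino80b knockdown, 33.0% and 41.6% in the Ino80c knockdown, 34.4% and 29.0% in the Ino80e knockdown, against 37.4% and 29.9% in NT. The Ino80 arrays gave the highest and the second lowest share, and both NT values lay within the range of the knockdown arrays. Some other chemosensory receptors were also seldom detected, with 12 of 117 V1r vomeronasal probes, 0 of 9 V2r probes and 2 of 13 Tas2r bitter taste probes on all 10 arrays. The few Tas1r taste and trace amine receptor probes had 2 of 3 and 1 of 4 (Taar9) on all 10 arrays.

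**Figure D1:**
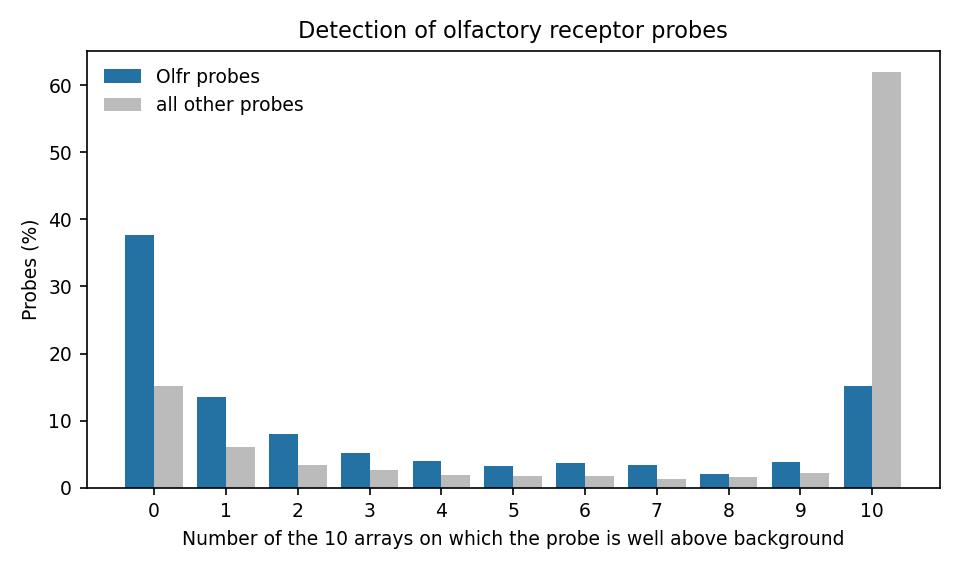
Share of olfactory receptor (Olfr) probes and of all other probes, in percent, by the number of the 10 arrays on which the probe was well above background. The Olfr bar stands highest at 0 arrays (37.7%), and the bar of the other probes at 10 arrays (62.0%).

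The members were dim. Levels are given as log2 of the processed signal minus the log2 75th percentile of the array, so that 0 is a probe at that percentile. The median member stood at -4.17 and -4.67 on the Ino80 arrays, -4.50 and -4.37 on the Ino80b arrays, -3.99 and -4.11 on the Ino80c arrays and -4.15 and -4.01 on the Ino80e arrays, against -4.64 and -4.74 on the NT arrays. Both NT medians were below every knockdown median except that of Ino80 replicate 2, which lay between them. In signal units the members' median lay between 31.8 and 51.8, while the dimmest probes called well above background on an array had 9.5 to 12.5. The 153 negative control spots of an array had a median of 2.26 to 3.11.

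**Figure D2:**
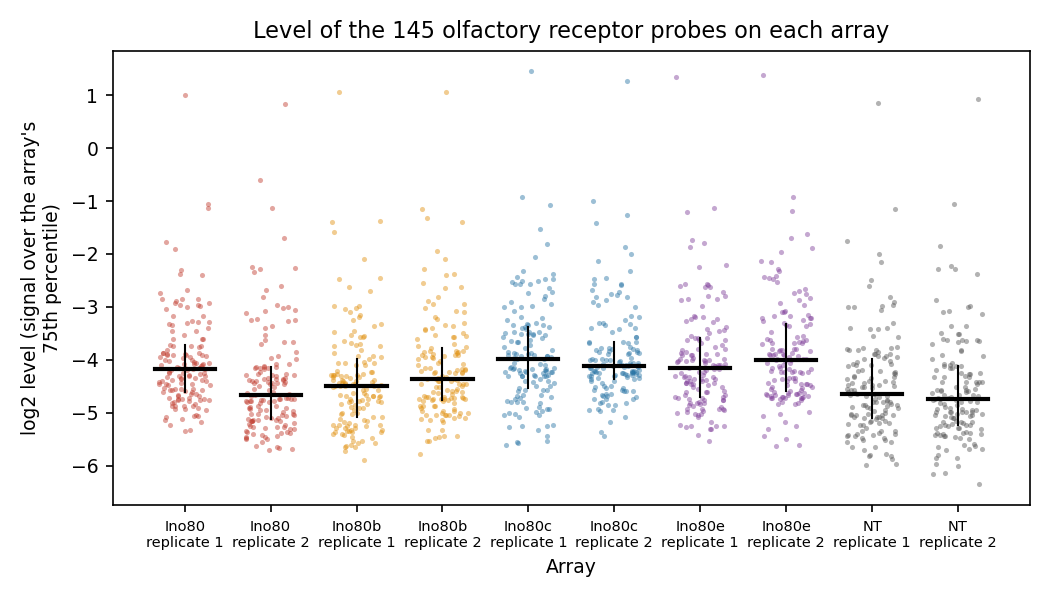
Log2 level of each of the 145 olfactory receptor probes on each array (points), with the median (thick bar) and the quartiles (thin line). Most probes lie between -5 and -3.5, and a single probe, Olfr571, lies near 1 on all arrays.

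Olfr571 had the highest signals among the members. It stood at 1.0 and 0.83 in the Ino80 knockdown, 1.06 and 1.06 in the Ino80b knockdown, 1.45 and 1.26 in the Ino80c knockdown and 1.35 and 1.38 in the Ino80e knockdown, against 0.85 and 0.92 in NT. The arrays of the Ino80c and Ino80e knockdowns lay above both NT arrays, but the differences did not pass the test (log2 fold change 0.47 ± 0.13, adjusted p = 0.0734, and 0.48 ± 0.13, adjusted p = 0.0933). Olfr187, Olfr985, Olfr1444 and Olfr234 followed with means over the 10 arrays of -1.27, -1.39, -1.46 and -2.04. Olfr166, Olfr43, Olfr174, Olfr1350 and Olfr397 completed the brightest 10, with means of -2.29 to -2.75. This order is of probe signals, which depend on the probe as well as on the RNA. In this stem cell culture, fewer cells with a transcript and less of it per cell cannot be told apart.

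At the lower edge of the rule, Olfr1009, Olfr975 and Olfr531 were detected on all 10 arrays with mean levels of -5.25, -5.32 and -5.41. Just outside it, Olfr836, Olfr1341 and Olfr1302 were detected on 9 arrays with mean levels of -4.51, -4.83 and -4.95. The 3 that missed the rule had higher mean levels than the 3 that met it, and each missed on 1 array, at signals of 16.3, 14.3 and 16.3.

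Among 10 receptors on the array that are known from tissues outside the nose, 3 were members. Olfr544, a receptor for azelaic acid studied in fat and liver, stood at -3.28 and -3.69 in the Ino80 knockdown, -3.54 and -3.19 in the Ino80b knockdown, -2.57 and -3.42 in the Ino80c knockdown and -3.44 and -3.33 in the Ino80e knockdown, against -3.41 and -3.36 in NT. Its knockdown arrays lay on both sides of NT. Olfr1393, which acts in glucose handling in the kidney, stood at -4.15 and -4.72 in the Ino80 knockdown, -4.69 and -4.30 in the Ino80b knockdown, -5.01 and -4.10 in the Ino80c knockdown and -4.09 and -3.98 in the Ino80e knockdown, against -5.42 and -5.18 in NT. All 8 knockdown arrays lay above both NT arrays, with log2 fold changes of 0.75 to 1.26, and the receptor passed in no comparison. Olfr17, the P2 receptor of olfactory map studies, had -4.40 and -5.26 in the Ino80 knockdown, -4.94 and -5.11 in the Ino80b knockdown, -4.17 and -4.03 in the Ino80c knockdown and -4.47 and -4.67 in the Ino80e knockdown, against -2.14 and -5.11 in NT. Its NT arrays lay further apart than those of any knockdown. Olfr78, an oxygen and short-chain fatty acid sensor of the carotid body and kidney, was detected on 2 arrays, the sperm receptor Olfr16 on 0, Olfr558 on 4, Olfr2 on 3, Olfr73 on 5, Olfr90 on 6 and Olfr15 on 1.

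Base composition went with detection inside and outside the family. The mean GC content of receptor probes was 44.5% ± 5.1 (SD) for the 145 members, 41.0% ± 4.1 for the 448 detected on 1 to 9 arrays and 38.9% ± 4.1 for the 359 detected on none. For all other probes the means were 43.1%, 40.2% and 35.4%. Within the members GC content had no clear relation to the level (Spearman rho 0.11 across 145 probes) or to the fold change in any comparison (rho from -0.11 to 0.05). These probes share their arrays and are not independent replicates.

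The members came from most chromosomes that hold receptor probes. Chromosome 7 held 37 of its 205 receptor probes as members (18.0%), chromosome 2 held 30 of 240 (12.5%), chromosome 11 held 18 of 61 (29.5%), chromosome 9 held 15 of 119 (12.6%) and chromosome 19 held 8 of 56 (14.3%). By the order of genes in RefSeq, 29 of 142 member genes (20.4%) lay next to a coding gene outside the family, against 109 of 750 other receptor genes (14.5%). Promoter windows from 250 bases before to 50 bases after the start of the RefSeq model were searched on both strands for the letters TAATTA and TAATTG, cores bound by homeodomain factors such as Lhx2, and for TCCC and GGGA separated by any 2 bases, a site of Ebf factors. Each motif was counted by itself, so that a window could hold several, also overlapping. TAATTA stood in 19.8% of 126 member windows, 18.6% of 948 receptor windows and 5.29% of 32851 windows of all genes, and TAATTG in 20.6%, 23.2% and 8.0%. For both, the members' shares were close to those of the family. The Ebf site stood in 0 member windows, 0.53% of receptor windows and 0.90% of windows of all genes.

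Besides the member, 8 member genes had 9 further probes that did not meet the rule, and these were well above background on 0 to 7 arrays. The further probe of Olfr234 was detected on 1 array, the further probes of Olfr1206 on 0 and 4, and those of Olfr1036, Olfr1436 and Olfr291 on 0. Only Olfr166 and Olfr1344 had a second probe among the members.

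In the Ino80c knockdown the member probes of each gene gave different changes, and these differences were not tested. The probes of Olfr166 are shown without capitals, for the place in the gene that each binds.
Olfr166 A_51_P271153: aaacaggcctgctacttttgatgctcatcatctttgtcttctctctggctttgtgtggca
Olfr166 A_51_P271160: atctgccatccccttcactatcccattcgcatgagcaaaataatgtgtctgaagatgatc
A_51_P271153 (chr16:19036906-19036965, plus strand) gave -3.47 and -4.07 in the Ino80c knockdown against -5.39 and -4.98 in NT (log2 fold change 1.42 ± 0.32, adjusted p = 0.0510). A_51_P271160 (chr16:19037217-19037276, plus strand), which is printed 10 times on each array, gave -2.48 and -2.14 in the Ino80c knockdown against -2.60 and -2.22 in NT (0.10 ± 0.19, adjusted p = 0.725). RefSeq transcripts of Olfr168 are also listed for it. The SD over the single spots of A_51_P271160 on an array was 0.15 to 0.42 (log2 scale), and the values given are means of 7 to 10 unflagged spots. For Olfr1344 the changes in the Ino80c knockdown were 1.30 ± 0.58 (A_52_P570487) and 0.19 ± 0.29 (A_51_P487062), and neither passed. In the Ino80 knockdown A_51_P487062 differed more from NT, with group means of -4.09 against -4.87, beside -4.28 against -4.49 for A_52_P570487.

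Fold changes below are on the log2 scale, knockdown minus NT, with the standard error of the fit and n = 2 arrays in each group. A probe is called at an adjusted p under 0.05, adjusted over the 29576 probes tested. In the Ino80 knockdown 6 members were called and all 6 were higher. This is 4.14% of the members, against 11.6% of all probes tested called in either direction and 6.52% called higher, so that the share was below the background. Olfr149 had -3.73 and -4.29 in the Ino80 knockdown against -5.65 and -5.44 in NT and rose 2.90-fold (log2 fold change 1.54 ± 0.31, adjusted p = 0.0266). Olfr1215 had -3.92 and -4.39 in the Ino80 knockdown against -5.24 and -5.65 in NT (1.29 ± 0.25, adjusted p = 0.0216). In both receptors the groups were separated by more than the range within either.

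Olfr187 had -1.05 and -0.61 in the Ino80 knockdown against -1.75 and -2.29 in NT and rose 2.28-fold (1.19 ± 0.21, adjusted p = 0.0183). Olfr1444 had -1.12 and -1.13 in the Ino80 knockdown against -2.01 and -1.86 in NT (0.80 ± 0.14, adjusted p = 0.0185). These 2 were among the brightest members, with signals of 450 and 550 (Olfr187) and 427 and 383 (Olfr1444) on the Ino80 arrays. Olfr1383 had -3.62 and -3.40 in the Ino80 knockdown against -4.76 and -4.33 in NT (1.04 ± 0.19, adjusted p = 0.0194), and Olfr549 had -3.01 and -2.35 against -3.80 and -3.64 (1.04 ± 0.25, adjusted p = 0.0428). The median change of the members was 0.30, beside 0.12 for all probes tested. It depended on the array, at 0.10 without Ino80 replicate 1 and 0.51 without Ino80 replicate 2. The members were 0.44 lower on replicate 2 than on replicate 1 in the median, against 0.11 for all probes. The count of calls was 4 and 1 without these arrays, 2 without NT replicate 2 and 0 in a fit of the 4 arrays compared, where 9.09%, 2.20%, 3.24% and 0% of all probes were called.

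In the Ino80b knockdown 5 members were called, all higher, which is 3.45% of the members beside 5.70% of all probes called in either direction and 2.94% called higher. Olfr149 had -3.10 and -3.74 in the Ino80b knockdown against -5.65 and -5.44 in NT and rose 4.36-fold (2.12 ± 0.31, adjusted p = 0.0220). Olfr353 had -4.29 and -3.86 in the Ino80b knockdown against -5.40 and -5.43 in NT (1.34 ± 0.26, adjusted p = 0.0379). The arrays of a group lay closer to each other than to the other group in both. Olfr1215 changed by 1.11 ± 0.25 (adjusted p = 0.0476), Olfr1143 by 0.80 ± 0.17 (adjusted p = 0.0427) and Olfr1444 by 0.67 ± 0.14 (adjusted p = 0.0458). The median change of the members was 0.29, beside 0.07 for all probes. The 5 calls fell to 0 without either Ino80b array or without NT replicate 2, to 2 without either Ino80c array and to 1 without either Ino80e array, and no member was called with only the 4 arrays compared. Over all probes, 0% to 1.27% were called without these arrays and 0% with only the 4 arrays.

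In the Ino80c knockdown 18 members were called, all higher, which is 12.4% of the members beside 4.78% of all probes called in either direction and 3.35% called higher. Olfr1215 had -3.35 and -3.80 in the Ino80c knockdown against -5.24 and -5.65 in NT and rose 3.66-fold (1.87 ± 0.25, adjusted p = 0.0228). Olfr353 had -3.32 and -4.10 in the Ino80c knockdown against -5.40 and -5.43 in NT (1.70 ± 0.26, adjusted p = 0.0288). Both also passed in the Ino80b knockdown, and the NT arrays lay below all 8 knockdown arrays.

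Olfr1316 had -4.21 and -4.20 in the Ino80c knockdown against -5.82 and -5.79 in NT (1.60 ± 0.33, adjusted p = 0.0430). Olfr821 had -3.63 and -3.69 in the Ino80c knockdown against -5.05 and -5.24 in NT (1.48 ± 0.23, adjusted p = 0.0288). Olfr43 had -1.52 and -1.99 in the Ino80c knockdown against -3.0 and -3.11 in NT (1.29 ± 0.24, adjusted p = 0.0369). In each of these the 2 groups did not overlap, and the gap between them exceeded the distance between replicates.

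Olfr975, at the lower edge of the rule, had -4.80 and -4.74 in the Ino80c knockdown against -5.80 and -6.16 in NT (1.22 ± 0.21, adjusted p = 0.0331). Olfr549, Olfr60, Olfr1381 and Olfr187 changed by 1.18, 1.15, 1.11 and 1.07 (standard errors 0.19 to 0.25, adjusted p from 0.0308 to 0.0484). The other 8 called members were Olfr656, Olfr1395, Olfr297, Olfr577, Olfr1143, Olfr1444, Olfr744 and Olfr649. In Olfr649 the Ino80c arrays (-4.19 and -4.24) lay above the NT arrays (-4.87 and -4.89), while the Ino80 arrays (-5.05 and -5.04) and the Ino80b arrays (-5.54 and -5.33) lay below them.

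The median change of the members in the Ino80c knockdown was 0.63, beside 0.20 for all probes tested, and 134 of 145 had a positive log2 fold change. Both Ino80c arrays were above both NT arrays for 95 members (65.5%), against 40.0% of all probes, and below both for 1, against 19.6%. The count of 18 calls rested on the spread shared over all arrays. Without NT replicate 1 it was 12, or 8.28% of the members, which is below the 13.7% of all probes called and the 9.77% called higher in that fit. The count was 0 without NT replicate 2, 0 without either Ino80c or Ino80e array, 1 without either Ino80b array and 0 with only the 4 arrays compared, where 0% to 0.605% of all probes were called. The members' median stayed between 0.61 and 0.68 without any single array.

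**Figure D3:**
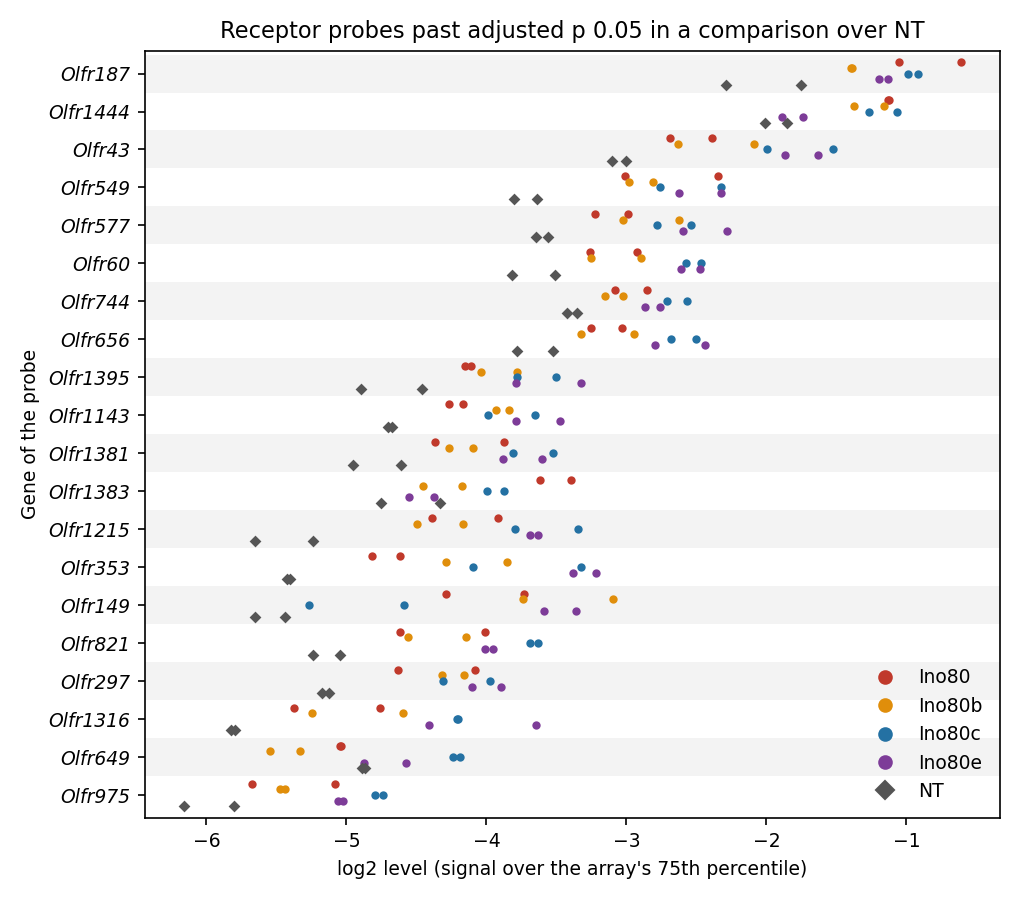
Log2 levels on each array of the 20 olfactory receptor probes called in at least 1 comparison over NT (circles for the knockdowns, grey diamonds for NT). For 17 of the 20 receptors both NT arrays lie below all 8 knockdown arrays, and for Olfr1444, Olfr1383 and Olfr649 they overlap.

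In the Ino80e knockdown no member was called by limma (0 of 145, beside 0% of all probes tested), while 65 members (44.8%) had an unadjusted p under 0.05, against 28.0% of all probes. In the Ino80, Ino80b and Ino80c knockdowns 24.1%, 26.2% and 44.8% of the members had one, against 30.7%, 29.0% and 29.7% of all probes. The lowest adjusted p of a member was 0.0808. Olfr1093 had -3.17 and -3.98 in the Ino80e knockdown against -6.0 and -5.97 in NT (2.41 ± 0.46, adjusted p = 0.0826). Olfr353 had -3.38 and -3.22 in the Ino80e knockdown against -5.40 and -5.43 in NT (2.11 ± 0.26, adjusted p = 0.0808). Olfr524 and Olfr149 differed by 2.11 ± 0.38 and 2.07 ± 0.31. Olfr1093 and Olfr524, and Olfr649 and Olfr91 elsewhere, were singled out after their values were seen.

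The median difference of the members in the Ino80e knockdown was 0.50, beside 0.11 for all probes, and 119 of 145 were positive. Both Ino80e arrays were above both NT arrays for 90 members (62.1%), against 35.1% of all probes, and below both for 5, against 22.5%. Called members numbered 16 (11%) with the values of the authors' deposited table, 28 (19.3%) with trend and robust estimation of the prior and 74 (51.0%) with normexp background correction, beside 9.54%, 8.43% and 22.7% of all probes in the same fits. All these members were called higher, beside 1.46%, 5.41% and 17.8% of all probes called higher. Without NT replicate 1 there were 3 (2.07%), beside 1.55% of all probes.

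In the Ino80 and Ino80b knockdowns fewer members lay above both NT arrays than in the Ino80c and Ino80e knockdowns, and more lay below both. Both arrays were above both NT arrays for 62 members (42.8%) in the Ino80 knockdown, against 32.5% of all probes, and for 65 (44.8%) in the Ino80b knockdown, against 33.2%. Both were below for 8 members in the Ino80 knockdown, against 21.5% of all probes, and for 13 in the Ino80b knockdown, against 25.4%. For 45 members (31.0%) all 8 knockdown arrays lay above both NT arrays, against 16.4% of all probes tested and 18.2% of the other probes detected on all 10 arrays. For 0 members all 8 lay below, against 10.1% of all probes. These counts use the same 2 NT arrays and are not 4 separate observations.

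**Figure D4:**
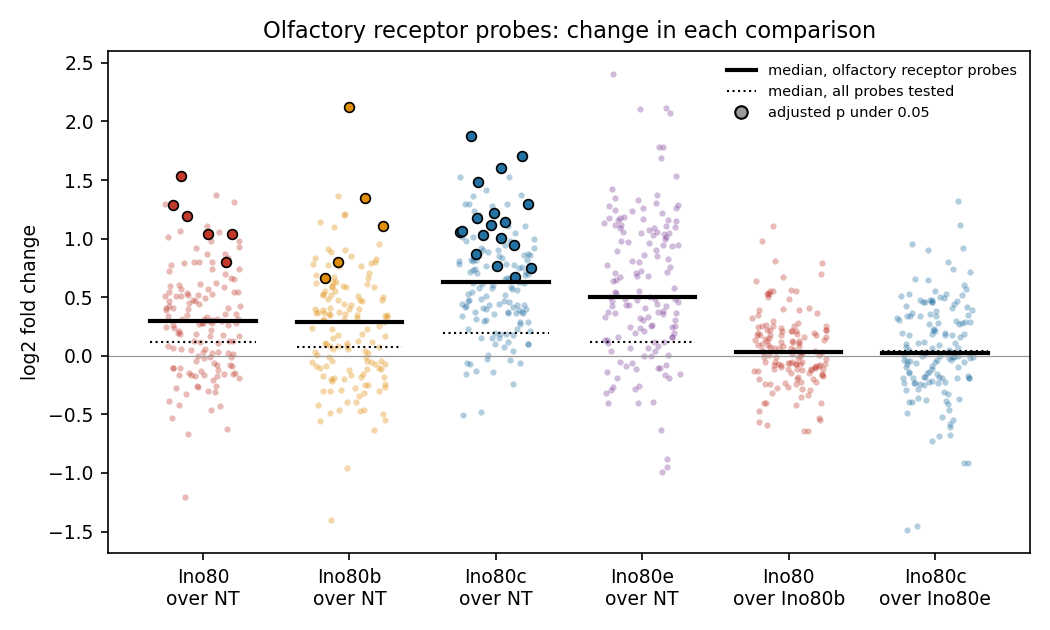
Log2 fold change of each olfactory receptor probe in the 6 comparisons (points; outlined where adjusted p is under 0.05), with the median of the 145 probes (solid bar) and of all probes tested (dotted bar). The solid bar lies above the dotted bar in the 4 comparisons over NT (0.30, 0.29, 0.63 and 0.50, beside 0.12, 0.07, 0.20 and 0.11) and near it in the 2 comparisons within a slide.

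The median of the members was positive in each comparison over NT under every alternative run, lowest at 0.07 for the Ino80b knockdown in the authors' deposited table. Its size depended on the scale, since the authors' table, which holds no background subtraction, gave 0.09, 0.07, 0.19 and 0.14 for the Ino80, Ino80b, Ino80c and Ino80e knockdowns. Relative to the median of all probes these are 0.05, 0.10, 0.19 and 0.18, beside 0.18, 0.22, 0.44 and 0.39 with the processed signal. Scaling by the array median lowered the median of all probes by 0.12, 0.04, 0.25 and 0.10 in the same order, and left the distances of the members from it as they were with the 75th percentile. The direction of calls over all probes moved with the scaling. In the Ino80c knockdown 992 probes were called higher and 422 lower with the 75th percentile, against 345 and 1080 with the array median and 800 and 2919 in the authors' table.

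Dim probes of other genes also had positive median changes over NT. Of the 145 members, 74 fell in the dimmest 10% of the probes detected on all arrays, which had mean levels of -5.67 to -4.36, and 44 in the next 10%. In the dimmest 10% the median change of the members was 0.28, 0.11, 0.67 and 0.45 in the Ino80, Ino80b, Ino80c and Ino80e knockdowns, beside 0.27, 0.10, 0.42 and 0.18 for the 2434 other probes of that bin. The 2 medians were close in the Ino80 and Ino80b knockdowns and apart in the Ino80c and Ino80e knockdowns. In the next 10% the members had 0.38, 0.33, 0.61 and 0.66, beside 0.18, 0.06, 0.29 and 0.09 for 2464 other probes. Both knockdown arrays were above both NT arrays for 64.9% of the members and 45.6% of the other probes of the dimmest 10% in the Ino80c knockdown, and for 58.1% and 30.2% in the Ino80e knockdown. These shares were 35.1% and 31.6% in the Ino80 knockdown and 33.8% and 26.5% in the Ino80b knockdown. Called higher in the dimmest 10% were 0%, 0%, 5.41% and 0% of the members in the Ino80, Ino80b, Ino80c and Ino80e knockdowns. Of the other probes of that bin 4.89%, 2.14%, 4.52% and 0% were called higher. These distances between probe sets were not tested.

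**Figure D5:**
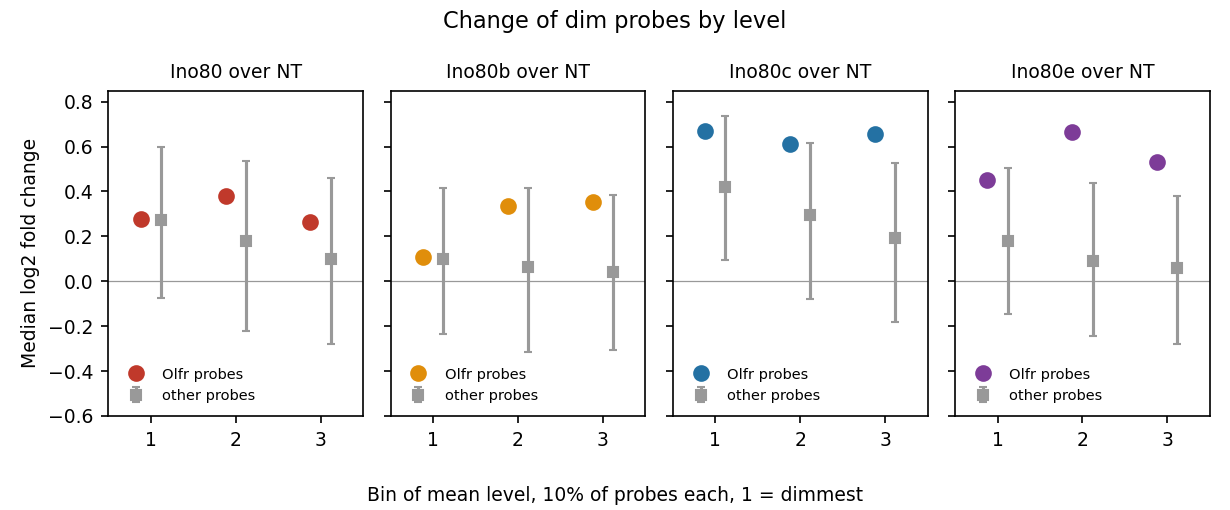
Median log2 fold change of olfactory receptor probes (circles) and of the other probes (squares, with quartiles) in the 3 dimmest bins of mean level, each of 10% of the probes detected on all 10 arrays, for each knockdown over NT. In the dimmest 10% the circle and the square coincide for Ino80 and Ino80b (0.28 and 0.27, 0.11 and 0.10) and are apart for Ino80c and Ino80e (0.67 and 0.42, 0.45 and 0.18).

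By chromosome, the members on chromosome 2 had median changes of 0.37, 0.38, 0.78 and 0.79 in the Ino80, Ino80b, Ino80c and Ino80e knockdowns, and those on chromosome 7 had 0.21, 0.18, 0.63 and 0.43. Those on chromosome 11 had 0.41, 0.36, 0.64 and 0.58, and those on chromosome 9 had -0.01, 0.11, 0.62 and 0.27. In the Ino80c knockdown the 4 chromosomes with the most members lay between 0.62 and 0.78, and the differences between chromosomes were not tested.

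No member was called lower in the 6 comparisons as fitted, but some were under other settings. Olfr985 was called lower in the Ino80 knockdown with normexp correction, in the authors' deposited table, over the probes detected on all arrays, with the trend and robust prior and with the replicate block, and in the Ino80c knockdown with normexp correction, in the authors' table and with the block. Olfr649 was called lower in the Ino80b knockdown over the probes detected on all arrays and with the block, and Olfr17 in the Ino80 knockdown without NT replicate 2. Olfr985, a bright member, had -1.77 and -1.69 in the Ino80 knockdown against -1.15 and -1.06 in NT (log2 fold change -0.63 ± 0.18, adjusted p = 0.0685). Olfr17 and Olfr91 had the lowest fold changes in the Ino80b knockdown, -1.40 ± 0.82 and -0.96 ± 0.75, and neither passed. In both the value of NT replicate 1 stood apart from that of replicate 2, at -2.14 and -5.11 for Olfr17 and -2.81 and -5.39 for Olfr91.

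Within a slide no member was called by limma in the Ino80 over Ino80b comparison (0 of 145, beside 0.0304% of all probes tested), where 5.52% had an unadjusted p under 0.05 against 8.68% of all probes, or in the Ino80c over Ino80e comparison (0 of 145, beside 0.0169%), where 10.3% had one against 10.4% of all probes. The median difference was 0.04 for Ino80 over Ino80b and 0.03 for Ino80c over Ino80e, beside 0.03 and 0.04 for all probes, and these medians changed sign between settings. Olfr1383 had -3.62 and -3.40 in the Ino80 knockdown against -4.45 and -4.18 in the Ino80b knockdown (0.81 ± 0.19, 95% interval 0.36 to 1.25, adjusted p = 0.289). Olfr149 had -5.27 and -4.59 in the Ino80c knockdown against -3.59 and -3.36 in the Ino80e knockdown (-1.45 ± 0.31, interval -2.19 to -0.71, adjusted p = 0.164). The arrays did not overlap in either, and neither passed.

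Components of olfactory signal transduction were looked up as well. Of 19 genes measured, each read by its brightest probe, 14 were detected on all 10 arrays. Among them were Gnal, Adcy3, Cnga2 and Omp, a protein of mature sensory neurons. Rtp1 and Rtp2, which carry receptors to the cell surface, and Stoml3, of the cilia, were on none. Of the 16 tested, Reep1 rose (0.50 ± 0.13, adjusted p = 0.0489) and Ckb, a creatine kinase, fell (-0.79 ± 0.20, adjusted p = 0.0440) in the Ino80 knockdown, and none passed in the other knockdowns. Of all probes tested, 11.6%, 5.70%, 4.78% and 0% were called in the Ino80, Ino80b, Ino80c and Ino80e knockdowns. These shares are the background for the lists below as well. The medians over the list were 0.16, 0.05, 0.26 and 0.13 in the Ino80, Ino80b, Ino80c and Ino80e knockdowns.

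Of 11 markers of olfactory sensory neurons, 7 were detected on all arrays and Stoml3 and Rtp1 on none. The markers' signals, each divided by the array's 75th percentile, summed to 1.08 to 1.13 in the Ino80 knockdown, 0.919 to 0.955 in the Ino80b knockdown, 1.02 to 1.18 in the Ino80c knockdown and 0.902 to 0.947 in the Ino80e knockdown, against 0.845 to 0.902 in NT. Gap43 and Adcy3, the brightest of them, weigh most in this sum. The median log2 fold changes of the 9 tested were 0.48, 0.12, 0.55 and 0.24 in the same order, and their part in the receptor result was not tested. Gng8, a G protein gamma subunit, rose in the Ino80 knockdown (0.64 ± 0.12, adjusted p = 0.0232) and was the only called marker in the 4 comparisons over NT.

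All 20 genes of receptor choice and silencing were tested. Ldb1, a cofactor that joins Lhx2-bound receptor enhancers, fell in the Ino80 (-1.11 ± 0.15, adjusted p = 0.0077), Ino80b (-0.78 ± 0.15, adjusted p = 0.0349) and Ino80c (-0.94 ± 0.15, adjusted p = 0.0288) knockdowns. Trim28, a corepressor that recruits the H3K9 methyltransferase Setdb1, fell in the Ino80 knockdown (-0.84 ± 0.17, adjusted p = 0.0265). The other 18 genes of the list, which include Kdm1a, Lbr, Cbx5 and Ehmt2, passed in no comparison, and the medians over the list were 0.18, 0.11, 0.14 and 0.04.

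Markers of 2-cell-like cells, a rare state of stem cell cultures, were higher in the knockdowns than in NT. Slide and knockdown cannot be told apart here. All 6 measured markers, Zscan4c, Usp17la, Tcstv1, Tcstv3, Sp110 and Zfp352, were called higher in the Ino80 and Ino80b knockdowns, 5 in the Ino80c knockdown and none in the Ino80e knockdown. Of all probes tested, 6.52%, 2.94%, 3.35% and 0% were called higher in the Ino80, Ino80b, Ino80c and Ino80e knockdowns. The markers' median log2 fold changes were 2.03, 1.93, 1.73 and 1.03 in the same order. The markers' signals over the array's 75th percentile summed to 6.81 to 9.31 in the Ino80 knockdown, 5.52 to 6.12 in the Ino80b knockdown, 4.68 to 6.56 in the Ino80c knockdown and 3.37 to 3.96 in the Ino80e knockdown, against 1.22 to 1.5 in NT. The part of these markers in the receptor result was not tested.

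Some markers of embryonic stem cells and of fibroblast feeder cells were also called over NT. Nanog, a pluripotency factor, fell in the Ino80 (-1.35 ± 0.21, adjusted p = 0.0118), Ino80b (-1.26 ± 0.21, adjusted p = 0.0252) and Ino80c (-1.05 ± 0.21, adjusted p = 0.0401) knockdowns, and Esrrb, another, fell by 1.61, 1.49 and 1.34 on the log2 scale. The summed scaled signal of the 10 stem cell markers was 426 to 508 in the Ino80 knockdown, 512 to 597 in the Ino80b knockdown, 590 to 602 in the Ino80c knockdown and 663 to 740 in the Ino80e knockdown, against 613 to 652 in NT. Dppa5a, the brightest of them, weighs most in this sum.

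Of 12 fibroblast feeder markers, 9 were detected on all arrays and 11 were tested. In the Ino80 knockdown 4 were called higher and 1, Fn1, lower, while 1 was called higher in the Ino80b knockdown, 2 in the Ino80c knockdown and 0 in the Ino80e knockdown. Of all probes tested, 11.6%, 5.70%, 4.78% and 0% were called in either direction in the same order. Dcn, a matrix proteoglycan, rose in the Ino80 (2.29 ± 0.32, adjusted p = 0.0092) and Ino80c (2.08 ± 0.32, adjusted p = 0.0288) knockdowns, and Twist2, a mesenchymal transcription factor, rose by 1.11, 1.08 and 1.15 in the Ino80, Ino80b and Ino80c knockdowns. The medians over the list were 0.68, 0.23, 0.59 and 0.13 in the Ino80, Ino80b, Ino80c and Ino80e knockdowns. The summed scaled signals were 37.5 to 38.8, 30.6 to 31.8, 33.9 to 38.9 and 34.1 to 34.6 in the same order, against 34.4 to 35.3 in NT. These sums follow the brightest markers, Tagln, Vim and Fn1, and hold little of Dcn, Twist2 and the collagens. The part of stem cell and feeder markers in the receptor result was not tested.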

How the data were processed

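Total RNA of 10 samples was hybridised to Agilent 4x44K arrays read in 1 channel, green by the files and Cy5 by the labels. Per the file headers, the intensity of 45018 spots was extracted with Feature Extraction 9.5.3.1 on build mm7, and the deposited processed signal is background-subtracted and detrended within each array. A probe counts as well above background by the flag of that software, with a multiplier of 13 on the background's standard deviation, per the file headers. The authors' deposited table holds log2 values. Each of its columns equals the log2 mean signal of an array plus 1 constant, without background subtraction, with medians of 6.76 to 6.87. The origin of the constants, and so the scaling between arrays, stays unknown.

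Control and flagged spots were left out and spots of a probe averaged. Log2 processed signals minus the array's 75th percentile were fitted with limma 3.58.1 (lmFit, eBayes; R 4.3.3) with group as the only term over all 10 arrays. P-values are two-sided and adjusted by Benjamini-Hochberg over 29576 probes that passed the background flag on both arrays of some group. The fit had 5 residual and 2.32 prior degrees of freedom and was tested on simulated data. P-values measure the spread between replicates only. Probes were compared with blastn 2.17.0 (word size 7). Receptors were named where among the 10 brightest members, called (at most 10 each way per comparison), at the edges of the rule, with several member probes, or known outside the nose. Members and gene lists were chosen with earlier results of these data known. In every gene and marker list a gene was read by its brightest measured probe, so detection and calls in the lists hold for that probe only. The 20 alternatives run changed background correction, scaling, source of values, filter, unit, prior and arrays. Probe sequences are those of the scanner files, and names and promoters are from RefSeq (GRCm38.p6). Same-numbered arrays deviated together with correlations of 0.01 to 0.34, under 0.1 for some pairs, so the numbers were not taken to pair the samples.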

Additional observations from a re-analysis of the deposited data

Results flagged for a closer look

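No fold change is given above for olfactory receptor probes that did not meet the rule. Some of them were detected in a knockdown and not in NT. Of these 807 probes, 13 were well above background on both Ino80 arrays and neither NT array, and 3 on both NT arrays and neither Ino80 array. For the Ino80b knockdown 7 were detected on both knockdown arrays and neither NT array, and 41 the other way round. For the Ino80c knockdown 34 were detected on both knockdown arrays and neither NT array, and 3 the other way round. For the Ino80e knockdown there were 24 and 15. As shares, these are 1.61% and 0.372% of the receptor probes for the Ino80 knockdown, beside 1.26% and 0.773% of the 15274 other probes that were not detected on all arrays. For the Ino80b knockdown they are 0.867% and 5.08%, beside 0.295% and 5.66%. For the Ino80c knockdown they are 4.21% and 0.372%, beside 1.54% and 1.45%, and for the Ino80e knockdown 2.97% and 1.86%, beside 0.694% and 3.74%. Whether these shares differ from each other or from those of the other probes was not tested, and they share the NT arrays.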

How the results depend on the processing

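Counts of called members depended on the processing, and none of the named calls over NT changed sign. The fit was repeated over the 25080 probes well above background on all 10 arrays. Of these, 18.2%, 12.4%, 11% and 2.05% were called in the Ino80, Ino80b, Ino80c and Ino80e knockdowns. In the same order, the members' 6, 5, 18 and 0 calls became 15, 11, 38 and 22. With only the arrays compared, which leaves fewer samples to estimate the spread, they became 0, 0, 0 and 0 (27, 37 and 67 members of the Ino80, Ino80b and Ino80c comparisons at an unadjusted p under 0.05). Normexp correction gave 10 (Ino80b), 46 (Ino80c) and 74 (Ino80e), beside 14.9%, 18.7% and 22.7% of all probes. Quantile normalization gave 8 (Ino80c; 5.07% of all probes), and the array median gave 3 (Ino80; 8.10%) and 6 (Ino80c; 4.82%). The authors' table gave 2 (Ino80b), 10 (Ino80c) and 16 (Ino80e), beside 12.6%, 12.6% and 9.54%, so that the 6.90% of members called in the Ino80c knockdown lay below that of all probes called in either direction and the 6.21% called higher above the 2.70% of all probes called higher. No filter gave 0 (Ino80b; 0.559%) and 0 (Ino80c; 0.301%), and the trend and robust prior gave 28 (Ino80e; 8.43%). The cause of the changes with correction, scaling, source, filter and prior was not tested. With the replicate number as a block the counts were 13, 11, 35 and 32, and 1 for Ino80c over Ino80e, a fit in which samples share only a number (22.5%, 16.3%, 15.8%, 8.05% and 1.05% of all probes were called). Leaving out 1 array gave 1 to 6, 0 to 5, 0 to 20 and 0 to 3 calls, and 0 in both comparisons within a slide. The fall of each target was not called with only the arrays compared for Ino80 (log2 fold change -1.20, adjusted p = 0.125), Ino80b (-2.0, 0.136) and Ino80c (-2.34, 0.149), nor for Ino80b with no filter (-2.0, 0.0648). Ino80e was called with normexp (-1.23, 0.0183), in the authors' table (-1.41, 0.0273), with the trend and robust prior (-1.21, 0.0355) and with the block (-1.21, 0.0469). Leaving out 1 array gave -1.31 to -1.09 (Ino80; adjusted p up to 0.0308), -2.24 to -1.76 (Ino80b; up to 0.192), -2.49 to -2.19 (Ino80c; up to 0.0942) and -1.50 to -0.91 (Ino80e; up to 0.436). The Ino80b call was lost without NT replicate 2 or any Ino80b, Ino80c or Ino80e array, and the Ino80c call without NT replicate 2 or either Ino80c array. Slide as a block could not be fitted, since each group lay on 1 slide. Over the named calls and alternatives, 241 results stayed called and 219 did not. The members' median signal was 31.8 to 51.8, beside 9.5 to 12.5 for the dimmest probes called well above background.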
